A study of Rattus norvegicus with 12 samples.

Results

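The response of the brain dead donor's kidney to transplantation was read from grafts of brain dead donors sampled 1 h after transplantation, set against kidneys of brain dead donors that had not been transplanted. These groups held 6 of the 12 arrays, chosen by sample title, and every gene measured on them was considered. Probes with 1 gene symbol were kept and probes of the same gene were averaged, which gave 9653 named genes among 18478 features (the other 8825 features were probes without a single symbol). Each array compared Cy3-labelled RNA of 1 kidney with Cy5-labelled RNA pooled from 3 normal kidneys. The sources used here do not state whether these were the 3 kidneys of the normal group, in which case levels near 0 in that group would be partly built in. All levels below are log2 ratios over that pool, so that 0 is the level of the pool, and all differences between groups are differences of log2 ratios.

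All animals were inbred male Lewis rats, so every transplant was an isograft, a graft with no genetic barrier between donor and recipient. For the brain dead donor grafts (replicates 21, 23 and 27), intracranial pressure in the donor was raised until the brain stem herniated, and the donor was ventilated for 6 h. The left kidney then went to the orthotopic site of a recipient with 30 min of operative ischemia, the recipient lost its own right kidney, and the graft was taken at 1 h. The brain dead donor kidneys (replicates 1, 2 and 3) were taken 6 h after induction of brain death, without transplantation (0 h). Of the remaining groups, living donor grafts (replicates 22, 24 and 25) had the same operation and the same 1 h, and normal kidneys (replicates 1, 2 and 3) had neither brain death nor transplantation. Brain death and ventilation were common to both brain dead donor groups. Ischemia, surgery, reperfusion and the new host all lie between the grafts and the kidneys and cannot be told apart. These are whole-kidney RNAs, in which fewer cells of a type and less RNA per cell cannot be told apart.

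A kidney that is cut off from blood and then reperfused switches on immediate early genes, which are transcribed within minutes without new protein synthesis and encode transcription factors such as Fos, Jun, Egr1 and Atf3. A further set of early transcripts encodes inhibitors of the same signals, among them MAP kinase phosphatases and proteins that destroy unstable mRNA. Brain death of the donor is known to raise catecholamines and cytokines and to activate the endothelium of the kidney before it is removed.

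Replicate 21 of the brain dead donor grafts stood apart from the other arrays. Its mean correlation was 0.851 with the other grafts of its group and 0.818 with the brain dead donor kidneys, over all features. Replicates 23 and 27 correlated with their own group at 0.886 and 0.884, and with the brain dead donor kidneys at 0.909 and 0.907. Over named genes, the SD between replicates had a median of 0.105 in brain dead donor grafts and 0.0878 in brain dead donor kidneys. Proximal tubule markers, the defining transcripts of kidney cortex, lay close to the pool, with a mean level of 24 markers from -0.28 to -0.13 in the grafts and from -0.13 to 0.17 in the brain dead donor kidneys. The free-text description is identical on all arrays and is at odds with most titles, so groups follow the titles.

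Transplantation was followed by a small set of increases in the kidney of the brain dead donor. In limma with Benjamini-Hochberg adjustment over all features, 10 of 18478 features passed an adjusted p under 0.05 (0.0541%), 7 higher and 3 lower in the grafts. Among named genes 5 passed, all of them higher (0.0518% of 9653): Nr4a1, Klf6, Ddit4, F3 and Tgif1. The other 5 features were probes without a symbol, with differences of 2.26, 0.40, -0.45, -0.50 and -0.96. No named gene passed as lower in limma, although 573 had an unadjusted p under 0.05 in that direction, against 516 in the higher direction. The calls rest on few arrays. Without replicate 21 of the grafts no feature passed (2127 had an unadjusted p under 0.05), and the same held when brain dead donor kidney 2 or 3 was left out, after quantile normalization, or in a fit of these groups alone. The fit takes its spread from all 12 arrays, and the count was 3 without replicate 24 of the living donor grafts, 2 without normal kidney 1 and 0 without normal kidney 3. Of the 12 fits that each left out 1 array, Ddit4 passed in 7, Nr4a1 and Tgif1 in 5, Klf6 in 3 and F3 in 2, always as higher.

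Nr4a1, an orphan nuclear receptor and immediate early gene, had levels of 3.16, 3.69 and 3.32 in grafts 21, 23 and 27, against 1.11, 1.13 and 0.28 in brain dead donor kidneys 1, 2 and 3. Every graft was therefore at least 2 log2 units above every untransplanted kidney. The difference of 2.55 ± 0.31 (SE, 3 arrays in each group, adjusted p = 0.0315) amounts to 5.86-fold. Without graft 21 it was 2.66 (adjusted p = 0.0735).

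Klf6, a zinc finger transcription factor of the Kruppel-like family that responds early to kidney injury, stood at 2.85, 2.35 and 2.46 in the grafts and at 1.10, 1.22 and 0.73 in the brain dead donor kidneys. It was thus also raised in the kidneys before transplantation, and the groups did not overlap. The rise was 1.53 ± 0.20 (SE, 3 arrays in each group, adjusted p = 0.0339), or 2.89-fold, and its 3 probes gave 1.58, 1.57 and 1.45. Without graft 21 it was 1.38 (adjusted p = 0.128).

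Ddit4, an inhibitor of the growth kinase complex mTORC1 that responds to hypoxia, glucocorticoids and ATF4, measured 1.88, 1.78 and 1.65 in the grafts, against 0.77, 0.89 and 0.59 in the brain dead donor kidneys. The groups were tight and far apart, with a rise of 1.02 ± 0.11 (SE, 3 arrays in each group, adjusted p = 0.03). The normal kidneys were not at 0 for this gene, with 0.66, 0.62 and 0.65, so its brain dead donor kidneys lay near the normal level. Without graft 21 the difference was 0.96 (adjusted p = 0.0735).

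F3, tissue factor, the membrane protein that starts coagulation, reached 1.11, 1.09 and 1.06 in the grafts, against 0.41, 0.16 and -0.15 in the brain dead donor kidneys. The grafts lay close together, and the spread was on the side of the untransplanted kidneys. The rise was 0.95 ± 0.12 (SE, 3 arrays in each group, adjusted p = 0.0339), and 0.94 without graft 21 (adjusted p = 0.132). Tgif1, a homeodomain repressor of TGF-beta target genes, stood at 0.82, 0.63 and 0.65 in the grafts and at 0.20, 0.01 and -0.05 in the brain dead donor kidneys. Its rise was 0.65 ± 0.08 (SE, 3 arrays in each group, adjusted p = 0.03), the smallest of the 5, and 0.59 without graft 21 (adjusted p = 0.0735). In living donor grafts Tgif1 was at 0.46, 0.44 and 0.37, below all brain dead donor grafts.

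**Figure D1:**
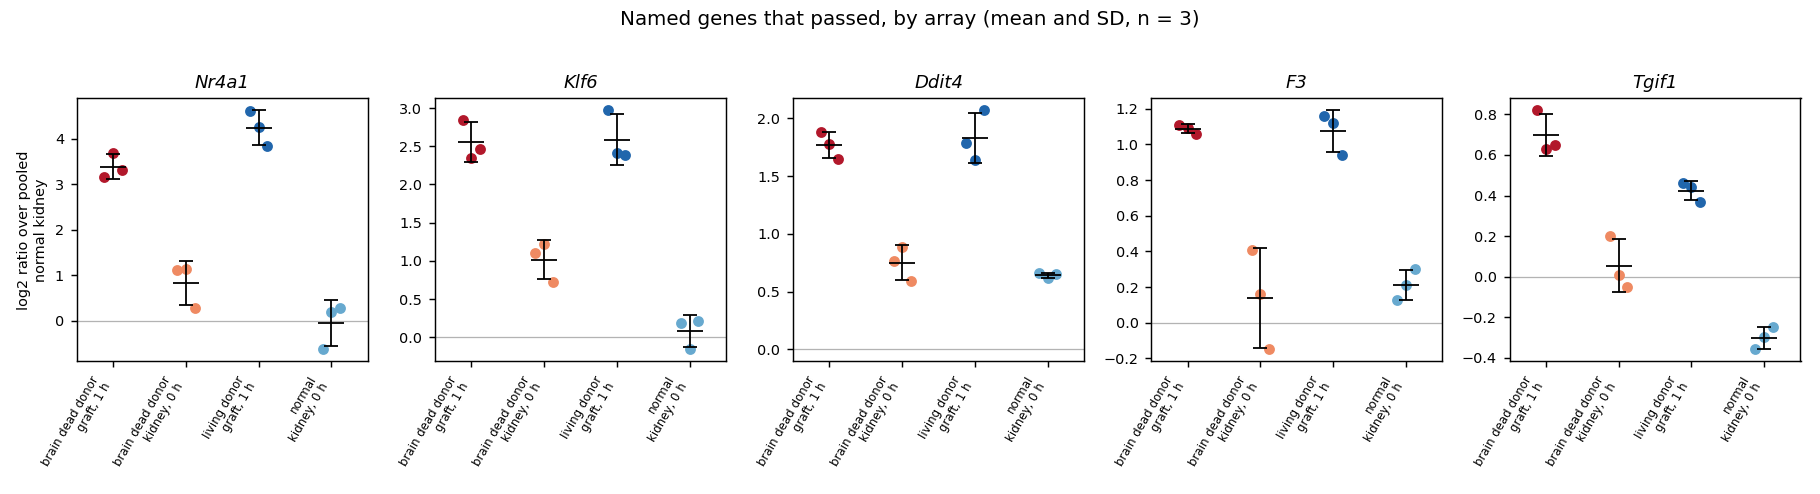
Levels of the 5 named genes that passed, as the log2 ratio over pooled normal kidney (vertical axis), in the 12 arrays by group, with the group mean and SD (n = 3 each). In each panel the 3 brain dead donor grafts lie above the 3 brain dead donor kidneys, and for Klf6 and Tgif1 the 3 brain dead donor kidneys lie above the 3 normal kidneys.

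The sequence upstream of genes that were higher in the grafts at 1 h is shown as a description, and shared regulation was not tested. RefSeq promoter sequences (GRCr8) were found for 3 of the 5 genes that passed, Nr4a1, Klf6 and Ddit4. Egr1, Ccn1 and Errfi1, which had large differences but missed the threshold, complete the 4 largest differences with a sequence. Each line gives the 250 bases before the annotated start, 5′ to 3′, with matches to the searched motifs in capitals. Positions are chr7:134259888-134260137 (forward strand) for Nr4a1, chr17:69458479-69458728 (reverse strand) for Klf6, chr20:28437038-28437287 (reverse strand) for Ddit4, chr18:26736828-26737077 (forward strand) for Egr1, chr2:237225690-237225939 (reverse strand) for Ccn1 and chr5:166606591-166606840 (forward strand) for Errfi1.
Nr4a1: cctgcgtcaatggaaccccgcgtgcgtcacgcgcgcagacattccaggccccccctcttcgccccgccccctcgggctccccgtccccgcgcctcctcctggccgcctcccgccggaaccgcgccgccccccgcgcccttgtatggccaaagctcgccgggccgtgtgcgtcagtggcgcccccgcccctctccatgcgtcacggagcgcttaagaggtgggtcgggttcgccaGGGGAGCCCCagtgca
Klf6: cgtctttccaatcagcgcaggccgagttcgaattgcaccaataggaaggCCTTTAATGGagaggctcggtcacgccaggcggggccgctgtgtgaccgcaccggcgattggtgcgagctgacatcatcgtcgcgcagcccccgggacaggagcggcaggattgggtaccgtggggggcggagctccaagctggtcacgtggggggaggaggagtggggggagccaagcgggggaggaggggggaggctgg
Ddit4: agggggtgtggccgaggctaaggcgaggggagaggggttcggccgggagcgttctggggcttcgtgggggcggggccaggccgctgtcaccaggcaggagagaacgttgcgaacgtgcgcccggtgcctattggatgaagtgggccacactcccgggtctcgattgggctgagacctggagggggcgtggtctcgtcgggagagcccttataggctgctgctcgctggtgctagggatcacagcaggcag
Egr1: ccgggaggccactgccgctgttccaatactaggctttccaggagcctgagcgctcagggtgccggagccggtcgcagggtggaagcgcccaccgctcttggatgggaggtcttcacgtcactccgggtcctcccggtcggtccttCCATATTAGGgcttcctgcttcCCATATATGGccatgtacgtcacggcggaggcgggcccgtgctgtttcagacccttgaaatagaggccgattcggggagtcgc
Ccn1: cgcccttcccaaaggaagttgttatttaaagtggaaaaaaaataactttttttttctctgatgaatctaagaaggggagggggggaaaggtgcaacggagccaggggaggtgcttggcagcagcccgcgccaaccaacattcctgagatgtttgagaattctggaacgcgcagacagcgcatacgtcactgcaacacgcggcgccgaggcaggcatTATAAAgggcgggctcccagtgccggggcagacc
Errfi1: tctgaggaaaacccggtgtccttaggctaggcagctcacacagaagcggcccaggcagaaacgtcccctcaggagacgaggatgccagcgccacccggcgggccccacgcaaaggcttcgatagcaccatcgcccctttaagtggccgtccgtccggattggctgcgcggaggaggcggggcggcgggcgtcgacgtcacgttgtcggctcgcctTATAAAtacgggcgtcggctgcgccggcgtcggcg
The motifs searched on both strands were the cyclic AMP response element TGACGTCA, the AP-1 site TGANTCA, the heat shock element GAANNTTC, the TATA box TATAAA, and, by name, the CArG box bound by serum response factor and the kB site. In Egr1 the capitals mark CArG boxes at 105 to 96 and at 83 to 74 bases before the start. Klf6 held a CArG box at 201 to 192 bases, and Nr4a1 held a kB site at 16 to 7 bases before the start. Ccn1 and Errfi1 each held a TATA box, at 34 to 29 and 35 to 30 bases, and Ddit4 held none of the motifs. Matches did not overlap one another. Among 33469 RefSeq promoters, the same 250 bases held a CArG box in 1.5%, a kB site in 3.54%, a TATA box in 12.9%, an AP-1 site in 6.34%, a heat shock element in 7.23% and a cyclic AMP response element in 1.59%. Among the 8374 of these promoters that belong to named genes of the arrays, the shares were 1.28%, 4.45%, 8.19%, 4.99%, 4.57% and 2.56% in the same order. A match describes these letters and is no measurement of binding.

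The other textbook immediate early transcription factors had larger differences than most genes but did not pass. Fos, a subunit of the AP-1 transcription factor, had levels of 5.75, 3.42 and 3.30 in the grafts, against 1.78, -0.10 and -0.67 in the brain dead donor kidneys. Both groups spread over more than 2 log2 units and yet did not overlap. The difference was 3.82 ± 0.82 (SE, 3 arrays in each group, adjusted p = 0.151), the largest of all named genes, and 3.02 without graft 21. Atf3, a stress-induced transcription factor, measured 4.52, 3.65 and 4.35 in the grafts and 2.29, 2.24 and 0.92 in the brain dead donor kidneys. It was thus well above the pool before transplantation, with a difference of 2.36 ± 0.39 (adjusted p = 0.103).

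Egr1, a zinc finger transcription factor that responds to growth signals, stood at 3.42, 2.69 and 2.28 in the grafts and at 1.64, 0.34 and -0.59 in the brain dead donor kidneys (difference 2.33 ± 0.57, SE, adjusted p = 0.176). Jun, the partner of Fos in AP-1, was at 2.84, 1.40 and 1.45 in the grafts and at 0.61, 0.07 and -0.04 in the brain dead donor kidneys. Its difference of 1.68 ± 0.38 (adjusted p = 0.162) was 1.21 without graft 21. For Fos, Egr1 and Jun the highest graft was replicate 21 and the highest untransplanted kidney was replicate 1. Myc, a growth-promoting transcription factor, had 1.65, 1.63 and 2.02 in the grafts and 1.15, 0.73 and 0.25 in the brain dead donor kidneys (1.06 ± 0.21, adjusted p = 0.131). Junb, which restrains Jun in AP-1, overlapped between the groups, with 3.65, 2.40 and 2.33 in the grafts and 2.86, 2.17 and 1.26 in the brain dead donor kidneys (0.69 ± 0.44, adjusted p = 0.522).

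Across 20 measured AP-1, Egr and Nr4a transcription factors, 1 passed as higher (Nr4a1) and none as lower, against 0.0518% of all named genes passing. The median difference was 0.61, against a median of 0.002 over all named genes. The grafts lay above the brain dead donor kidneys without overlap for 13 of the 20 and below for none. Over all named genes the arrays did not overlap in the higher direction for 8.66% and in the lower direction for 8.84%. This list and those below were drawn up with earlier results of these data known. Their shares beside those of all named genes are therefore a description and no test. Of the 20, 19 had a difference above 0. The mean level of the list ran from 1.40 to 1.86 in the grafts and from 0.24 to 0.93 in the brain dead donor kidneys, so that on every graft it was higher than on any untransplanted kidney. Among 12 Kruppel-like factors Klf6 was the 1 that passed, 3 lay higher without overlap and none lower, and the median was 0.10. Klf4, a regulator of endothelial and epithelial differentiation, stood at 1.94, 1.69 and 1.52 in the grafts and at 1.28, 0.46 and 0.46 in the brain dead donor kidneys (0.98 ± 0.23, adjusted p = 0.171).

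**Figure D2:**
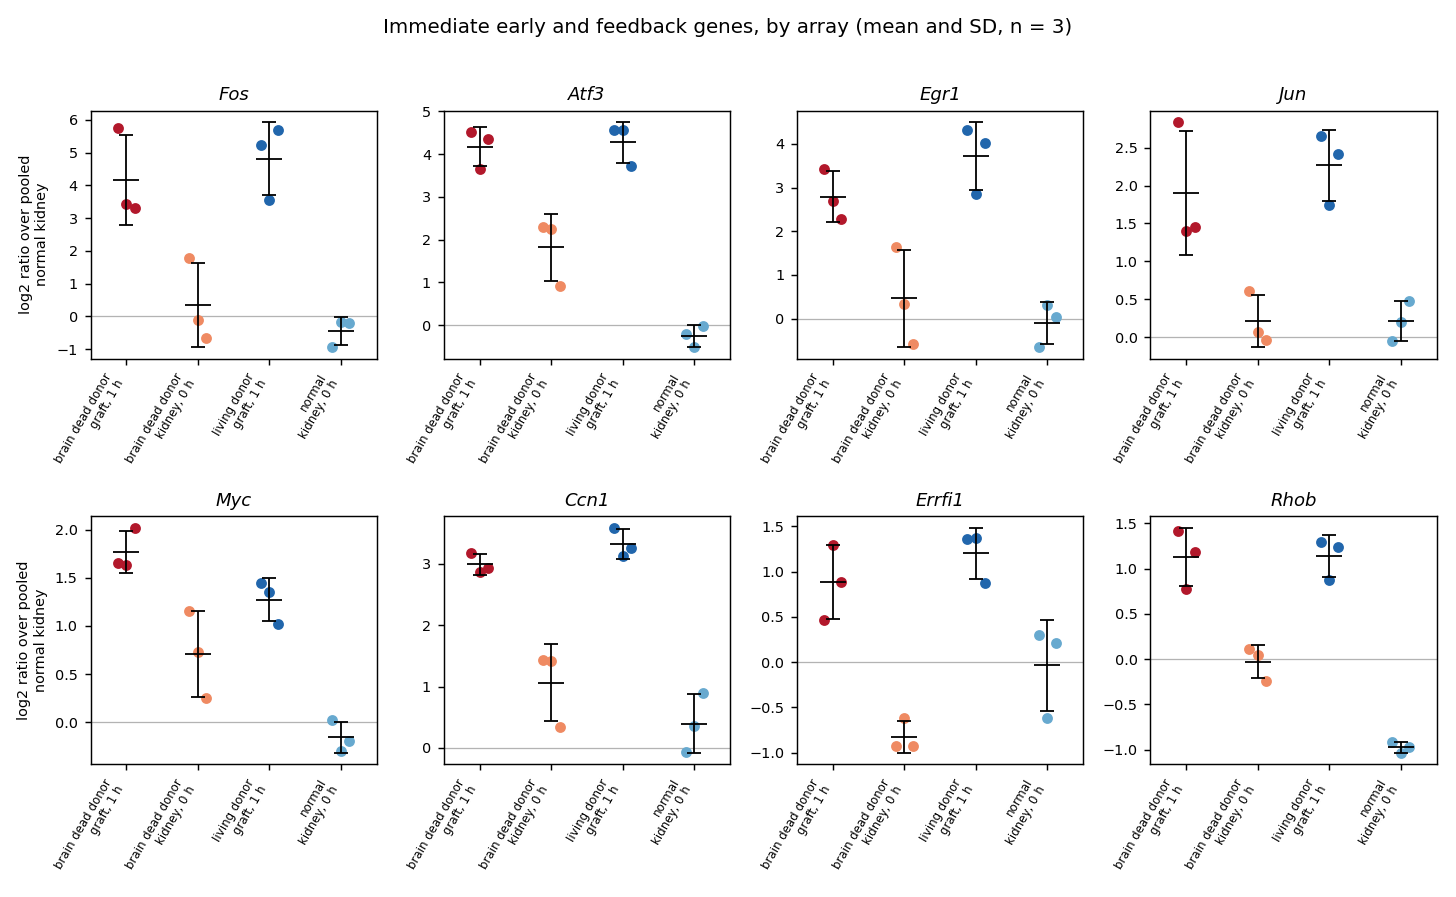
Levels of 8 immediate early, feedback and injury genes as the log2 ratio over pooled normal kidney (vertical axis) in the 12 arrays by group, with the group mean and SD (n = 3 each). The 3 brain dead donor grafts lie above the 3 brain dead donor kidneys in all 8 panels, with adjusted p-values from 0.0756 for Rhob to 0.176 for Egr1, so none passed.

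Feedback inhibitors of growth factor and MAP kinase signalling were also higher in the grafts on average, with a median of 0.37 over 23 genes measured, none of which passed. Of these, 6 of 23 did not overlap in the higher direction and none in the lower, against 8.66% and 8.84% of all named genes. In limma 0 of the 23 passed, against 0.0518% of all named genes, and 9 of the 23 had an unadjusted p under 0.05 in the higher direction and 0 in the lower. Errfi1, an inhibitor of the EGF receptor, was below the pool in the brain dead donor kidneys, at -0.93, -0.62 and -0.93, and above it in the grafts, at 0.47, 1.29 and 0.89. Its difference was 1.71 ± 0.27 (adjusted p = 0.1), and 1.92 without graft 21. Dusp1, a phosphatase that switches off MAP kinases, measured 1.97, 1.36 and 1.09 in the grafts and -0.20, 0.02 and 0.01 in the brain dead donor kidneys (1.53 ± 0.34, adjusted p = 0.156). The untransplanted kidneys were thus at the level of the pool for Dusp1. Rgs2, which limits signalling of vasoconstrictor receptors, had 1.35, 1.50 and 1.61 in the grafts and 0.59, 0.04 and 0.34 in the brain dead donor kidneys (1.16 ± 0.20, adjusted p = 0.11). Dusp5 differed by 1.10 ± 0.22 (adjusted p = 0.133). Zfp36, tristetraprolin, which promotes the decay of cytokine mRNA, overlapped between the groups (0.83 ± 0.31, adjusted p = 0.309), and its 2 probes gave 1.49 and 0.17.

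Genes of tubular injury and repair went in both directions. Of 20 measured none passed and 13 had a difference above 0, with a median of 0.09 and a range from -0.25 to 1.93. Without overlap 5 lay higher and 3 lower, against 8.66% and 8.84% of all named genes. The genes with values below were all higher in the grafts, and the 3 that lay lower are not among them. Ccn1, a matricellular protein of early wound responses, stood at 3.18, 2.86 and 2.93 in the grafts and at 1.43, 1.42 and 0.34 in the brain dead donor kidneys (1.93 ± 0.31, adjusted p = 0.1). Ccn2, connective tissue growth factor, stood at 1.42, 2.07 and 2.03 in the grafts and at -0.53, 0.78 and 0.94 in the brain dead donor kidneys (1.44 ± 0.39, adjusted p = 0.198). Areg, the EGF receptor ligand amphiregulin, differed by 0.86 ± 0.14 (adjusted p = 0.103) and Anxa1, an anti-inflammatory phospholipid-binding protein, by 0.85 ± 0.14 (adjusted p = 0.103). The injury marker Havcr1 is not among the named genes measured.

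Rhob, a small GTPase that is itself an early response gene, came closest to passing among the remaining named genes. Its levels were 1.42, 0.78 and 1.19 in the grafts and 0.11, 0.05 and -0.24 in the brain dead donor kidneys. The normal kidneys were lower still, at -0.92, -1.04 and -0.97, so that the brain dead donor kidneys sat between normal kidneys and grafts. The difference was 1.15 ± 0.17 (adjusted p = 0.0756). It passed in the test restricted to named genes, where 6 genes passed in all.

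The integrated stress response and the unfolded protein response had a median of 0.11 over 23 measured genes. Ddit4 was the 1 of 23 that passed, against 0.0518% of all named genes. It is also on the hypoxia and glycolysis list below, so the same call counts in both lists. In the higher direction 6 did not overlap and in the lower none, against 8.66% and 8.84% of all named genes. Atf4, the transcription factor at the centre of the integrated stress response, stood at 1.61, 1.57 and 1.69 in the grafts and at 0.85, 1.20 and 1.19 in the brain dead donor kidneys (0.55 ± 0.10, adjusted p = 0.115). Ddit3, the stress transcription factor CHOP, stood at 0.59, 0.58 and 0.75 in the grafts and at 0.25, 0.01 and 0.04 in the brain dead donor kidneys (0.54 ± 0.10, adjusted p = 0.117). Both genes were thus separated between the groups by a narrow gap. Of 25 heat shock chaperones none passed and the median was -0.07. Hspa1a, the inducible HSP70, had 2.22, 2.62 and 2.38 in the grafts and 1.80, 0.97 and 1.09 in the brain dead donor kidneys (1.12 ± 0.26, adjusted p = 0.167). Other chaperones pointed the other way, with -0.36 ± 0.09 for Hspa4 (adjusted p = 0.191) and -0.18 ± 0.05 for the mitochondrial Hspd1 (adjusted p = 0.192).

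Several inflammatory genes were already high in the brain dead donor kidney before transplantation, and no difference between grafts and kidneys was detectable for them. Ccl2, a chemokine for monocytes, measured 5.32, 3.45 and 3.95 in the grafts and 3.65, 5.05 and 3.31 in the brain dead donor kidneys. Il6, the acute phase cytokine interleukin 6, measured 3.39, 1.00 and 1.89 in the grafts and 2.85, 2.32 and 0.99 in the brain dead donor kidneys. Selp, the adhesion molecule P-selectin of endothelium and platelets, measured 2.91, 2.10 and 3.95 in the grafts and 4.02, 3.92 and 2.25 in the brain dead donor kidneys. For all of these the groups overlapped over a range of more than 1 log2 unit. The differences were 0.24 ± 0.57, 0.04 ± 0.58 and -0.41 ± 0.58 (SE, adjusted p = 0.898, 0.984 and 0.801) in limma. Without graft 21 the differences of Ccl2 and Il6 were -0.30 and -0.61, against the sign with all arrays.

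Among 29 cytokines and chemokines none passed, and the median was 0.03. Without overlap 2 were higher and 2 lower, against 8.66% and 8.84% of all named genes. Cxcl2, a chemokine for neutrophils, stood at 3.25, 2.15 and 2.55 in the grafts and at 0.95, 2.30 and 1.22 in the brain dead donor kidneys (1.16 ± 0.41, adjusted p = 0.287). Graft 23 lay below kidney 2, so the groups overlapped. Of 21 NF-kB feedback and target genes none passed and the median was -0.05. Nfkbia, which encodes the NF-kB inhibitor I kappa B alpha, stood at 2.92, 2.53 and 2.43 in the grafts and at 1.89, 2.36 and 1.83 in the brain dead donor kidneys (0.60 ± 0.21, adjusted p = 0.275). Among 17 endothelial adhesion and activation genes F3 was the 1 that passed, against 0.0518% of all named genes, and the median was -0.02. Of the 17, 2 lay higher without overlap and none lower. Edn1, the vasoconstrictor endothelin 1, stood at 0.66, 0.41 and 0.94 in the grafts and at -0.51, -0.02 and -0.17 in the brain dead donor kidneys (0.90 ± 0.17, adjusted p = 0.117). In the normal kidneys Edn1 was lower, at -0.87, -0.85 and -1.20.

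Hmox1, heme oxygenase 1, was high in both brain dead donor groups, with 2.75, 3.04 and 4.10 in the grafts and 2.17, 2.26 and 2.70 in the brain dead donor kidneys. Living donor grafts were at 0.44, 0.46 and 0.40. The difference between grafts and kidneys of brain dead donors was 0.92 ± 0.28 (adjusted p = 0.242), with 1.07 and 0.77 for its 2 probes. Of 30 antioxidant, heme and metallothionein genes none passed, and the median was 0.06. Cat, catalase, which breaks down hydrogen peroxide, was lower in the grafts without overlap, at -1.11, -1.10 and -1.24, against -0.64, -0.75 and -0.68 in the brain dead donor kidneys (-0.46 ± 0.09, adjusted p = 0.119). Nqo1, a quinone reductase of the antioxidant response, differed by 0.42 ± 0.12 (adjusted p = 0.208), with graft 21 level with kidney 3.

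**Figure D3:**
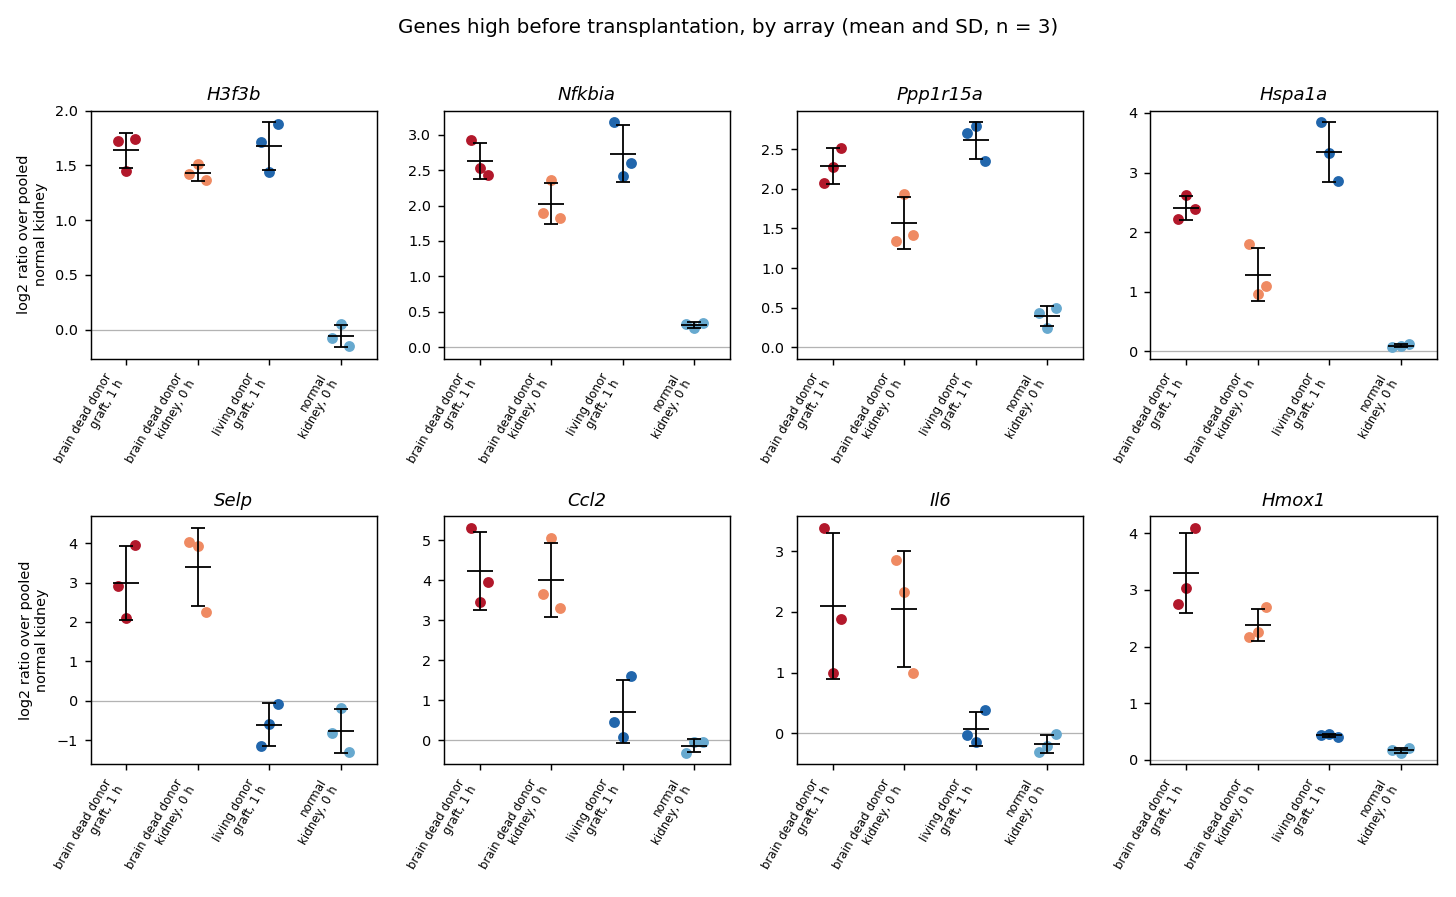
Levels of 8 genes that lay above the pool in the brain dead donor kidneys, as the log2 ratio over pooled normal kidney (vertical axis) in the 12 arrays by group, with the group mean and SD (n = 3 each). For Selp, Ccl2 and Il6 the brain dead donor grafts and the brain dead donor kidneys overlap, and H3f3b averages 1.64 in the grafts and 1.44 in the kidneys.

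Metabolic and hormonal genes gave mixed values. Slc25a25, a mitochondrial ATP carrier, stood at 0.70, 1.03 and 0.95 in the grafts and at 0.24, -1.15 and -1.47 in the brain dead donor kidneys (1.69 ± 0.40, adjusted p = 0.17). The glucocorticoid-induced Tsc22d3 differed by 0.73 ± 0.16 (adjusted p = 0.153) and the clock gene Per1 by 1.15 ± 0.31 (adjusted p = 0.204). Clock went the other way and was lower without overlap (-0.64 ± 0.23, adjusted p = 0.29). None of the 20 glucocorticoid and clock genes passed, against 0.0518% of all named genes. Without overlap 5 of the 20 lay higher and 2 lower, against 8.66% and 8.84% of all named genes. Plin2, the coat protein of lipid droplets, stood at 1.52, 1.27 and 2.42 in the grafts and at 0.70, 0.96 and 0.78 in the brain dead donor kidneys (0.92 ± 0.25, adjusted p = 0.197). Ucp3, on the same list of 25 lipid handling genes, was lower without overlap (-0.62 ± 0.19, adjusted p = 0.242). On that list 3 genes lay higher and 2 lower without overlap, and none passed. Among 31 hypoxia and glycolysis genes Ddit4 was again the 1 that passed, against 0.0518% of all named genes, and the median was 0.03. Without overlap 5 of the 31 lay higher and 3 lower, against 8.66% and 8.84% of all named genes. Slc2a1, the glucose transporter GLUT1, differed by 0.26 ± 0.10 (adjusted p = 0.32), with 0.12 and 0.41 for its 2 probes. Epo, erythropoietin, differed by -0.29 ± 0.09 (adjusted p = 0.25).

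Housekeeping lists differed little, yet the ribosomal proteins leaned one way. Of 51 ribosomal protein genes none passed and 47 had a difference above 0, with a median of 0.13, against 0.002 over all named genes. Without overlap 16 lay higher and 1 lower, against 8.66% and 8.84% of all named genes. Their mean level ran from 0.16 to 0.35 in the grafts and from 0.04 to 0.18 in the brain dead donor kidneys, so the groups overlapped. The living donor grafts gave the same median of 0.13 over normal kidneys. Medians were 0.03 over 59 respiratory chain subunits and 0.05 over 34 proteasome subunits. Of 229 solute carriers 21 were higher and 22 lower without overlap, against the same 8.66% and 8.84% of all named genes, with a median of -0.01.

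Decreases were smaller than increases, and no named gene passed. At a difference of at least 2-fold, 27 named genes were higher and 6 lower in the grafts. The named genes with the smallest p-values in the lower direction were Gne, Sf3b3, Haus1, Lrrk1, Sema3c, Cat, Gkap1 and Rad50, with adjusted p-values from 0.1 to 0.148. Gne, the enzyme that starts sialic acid synthesis, stood at -0.89, -0.67 and -0.63 in the grafts and at -0.07, -0.15 and -0.20 in the brain dead donor kidneys (-0.59 ± 0.09). Living donor grafts lay near the normal kidneys for Gne, with a difference of -0.05. Haus1, a part of augmin, which seeds microtubules in the mitotic spindle, stood at -1.73, -1.36 and -1.46 in the grafts and at -0.52, -0.79 and -0.92 in the brain dead donor kidneys (-0.78 ± 0.14). Both groups were thus below the pool, the grafts more so. Rad50, a DNA break repair protein, differed by -0.62 ± 0.13, Sema3c, a secreted guidance protein, by -0.52 ± 0.10, and Sf3b3, a splicing factor subunit, by -0.38 ± 0.07.

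Proximal tubule markers were mostly lower in the grafts. Of 24 measured 3 had a difference above 0 and none passed, and the median was -0.24, against 0.002 over all named genes. Without overlap 6 lay lower and none higher, against 8.84% and 8.66% of all named genes. The 6, picked out after their values were seen, were Slc22a6, Lrp2, Slc4a4, Cubn, Slc15a2 and Slc22a8. Lrp2, megalin, the receptor for filtered proteins, stood at -0.50, -0.54 and -0.93 in the grafts and at -0.17, -0.23 and -0.40 in the brain dead donor kidneys (-0.39 ± 0.12, adjusted p = 0.234). Slc22a6, the organic anion transporter OAT1, stood at -0.17, -0.30 and -0.27 in the grafts and at 0.32, 0.31 and 0.04 in the brain dead donor kidneys (-0.47 ± 0.14, adjusted p = 0.223). The median over the markers in living donor grafts against normal kidneys was -0.10. Medians of the other nephron lists were 0.06 for loop of Henle and distal nephron, -0.07 for collecting duct and 0.01 for podocytes.

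Neutrophil markers overlapped between the groups as a list. The mean level of 10 neutrophil markers ran from 0.14 to 0.79 in the grafts and from 0.49 to 1.20 in the brain dead donor kidneys, and their part in the differences above was not tested. The 2 markers with the largest decreases of the 10 were picked out after their values were seen. S100a9, a calcium-binding protein of neutrophils, stood at 1.22, 1.98 and 3.16 in the grafts and at 4.48, 3.07 and 2.84 in the brain dead donor kidneys (-1.35 ± 0.50, adjusted p = 0.311). S100a8, its partner, was listed at 0.00 on grafts 21 and 23 and stood at 0.65 on graft 27, against 1.95, 1.25 and 0.67 in the brain dead donor kidneys (-1.07 ± 0.46, adjusted p = 0.368). Whether the values of 0.00 are measurements cannot be told without intensities, and the S100a8 difference rests on them. Of the others, Mmp8, a collagenase, was lower without overlap (-0.74) and Mmp9, a gelatinase, was higher without overlap (0.05), while Ncf4, Itgam, Cxcr2, Il1r2, Ncf1 and Lcn2 overlapped, with differences from -0.33 for Ncf4 to 0.07 for Lcn2. No marker of this list passed. The median was -0.15 over the neutrophil markers, 0.03 over 16 monocyte and macrophage markers and -0.08 over 19 T and NK cell markers.

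Living donor grafts give the response to the same operation without brain death. That contrast (living donor grafts against normal kidneys) uses the other 6 arrays, so it shares no array with the contrast above, although both come from the same fit and all arrays share the pool. In it 135 features passed (0.731%), 100 higher and 35 lower, and 75 of them were named genes, 70 higher (0.725%) and 5 lower. After quantile normalization the split was 122 higher and 72 lower. The count of 135 changed to 33, 57 or 210 when living donor graft 22, 24 or 25 was left out, and to 43, 55 or 36 when normal kidney 1, 2 or 3 was left out. All 5 named genes that passed in brain dead donor grafts also passed in living donor grafts, which is 100% of the 5 and 6.67% of the 75. Across all named genes the differences of the contrasts correlated at r = 0.523, given as a description over genes that are not independent.

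The 70 named genes that passed as higher in living donor grafts were all above 0 in the brain dead donor contrast too. Their arrays did not overlap in the higher direction for 47 of the 70, against 8.66% of all named genes. The median difference was 0.58 in brain dead donor grafts and 1.10 in living donor grafts, and 69 of the 70 had the smaller difference after brain death. Living donor values chose these genes, which by itself makes their living donor differences large and their normal kidney levels low. The group means of these genes had a median of 1.05 in brain dead donor grafts, against 0.49 in brain dead donor kidneys. For living donor grafts the median was 1.12, against 0.01 in normal kidneys.

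**Figure D4:**
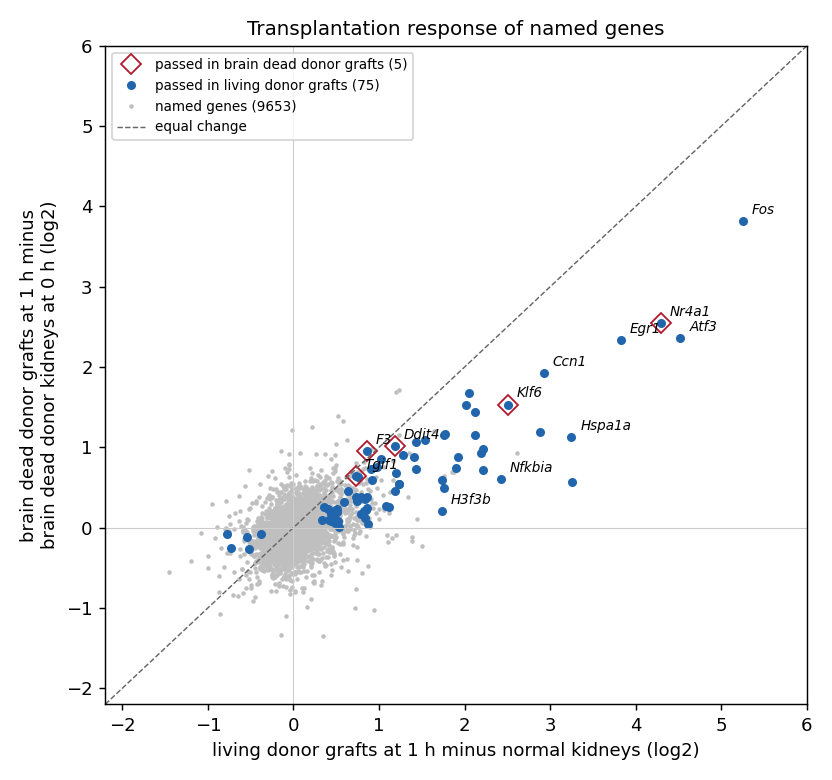
Differences of 9653 named genes in log2 units: living donor grafts at 1 h minus normal kidneys (horizontal axis) and brain dead donor grafts at 1 h minus brain dead donor kidneys at 0 h (vertical axis). Blue points are the 75 genes that passed in living donor grafts, of which the 70 higher ones all lie above 0 on the vertical axis and 69 lie below the dashed line of equal change. Their values on the horizontal axis chose these genes, which by itself favours positions below the line.

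Whether the responses themselves differed was tested as the brain dead donor difference minus the living donor difference. In limma 0 features passed, 964 had an unadjusted p under 0.05, and the smallest adjusted p was 0.0648. That gene was H3f3b, which encodes the replacement histone H3.3. Its levels were 1.72, 1.45 and 1.74 in brain dead donor grafts and 1.42, 1.51 and 1.37 in brain dead donor kidneys, which overlap. Grafts of living donors had 1.71, 1.44 and 1.88, against -0.08, 0.05 and -0.15 in normal kidneys. H3f3b therefore differed by 0.20 ± 0.12 after brain death and by 1.74 ± 0.12 in living donor grafts. The difference of the differences was -1.53 ± 0.17, and it passed in the test over named genes alone, with array weights, and when living donor graft 24 or 25 was left out.

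The other genes with the smallest p-values for this difference did not pass (adjusted p from 0.473 to 0.526) and most had the smaller difference after brain death. Nfkbia differed by 0.60 after brain death and 2.42 in living donor grafts, Ppp1r15a, a subunit of the eIF2 alpha phosphatase, by 0.72 and 2.22, and Hspa1a by 1.12 and 3.25. Herpud1, a protein of endoplasmic reticulum degradation, differed by 0.17 and 0.79 in the same order, Atf4 by 0.55 and 1.24, and Ddit3 by 0.54 and 1.23. Ppp1r15a stood at 2.07, 2.27 and 2.52 in brain dead donor grafts and at 1.34, 1.94 and 1.42 in brain dead donor kidneys. Grafts of living donors stood at 2.70, 2.79 and 2.35, and in normal kidneys at 0.43, 0.25 and 0.50. At 1 h the grafts of both donor types overlapped, while the brain dead donor kidneys and the normal kidneys did not. Rhobtb3, with 0.33 and -0.44, and Gucy1b2, a guanylate cyclase subunit, with 0.33 and -0.20, pointed in opposite directions, as did Fndc3a with -0.21 and 0.42.

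By contrast, 3 of the 5 genes that passed after brain death had differences of close size in living donor grafts: Ddit4 with 1.02 and 1.19, F3 with 0.95 and 0.86, and Tgif1 with 0.65 and 0.73. The difference of the differences was -0.17 ± 0.16, 0.09 ± 0.17 and -0.08 ± 0.11 (SE). For Nr4a1 (2.55 and 4.29) and Klf6 (1.53 and 2.50) it was -1.74 ± 0.44 and -0.97 ± 0.28, with adjusted p-values of 0.54 and 0.763 in limma. Over the list of AP-1, Egr and Nr4a factors the median was 0.61 after brain death and 1.30 in living donor grafts. There 12 of 20 passed as higher, against 0.725% of all named genes in that contrast. Over the ATF4 and unfolded protein genes the median was 0.11 and 0.32, with 6 of 23 passing as higher in living donor grafts.

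**Figure D5:**
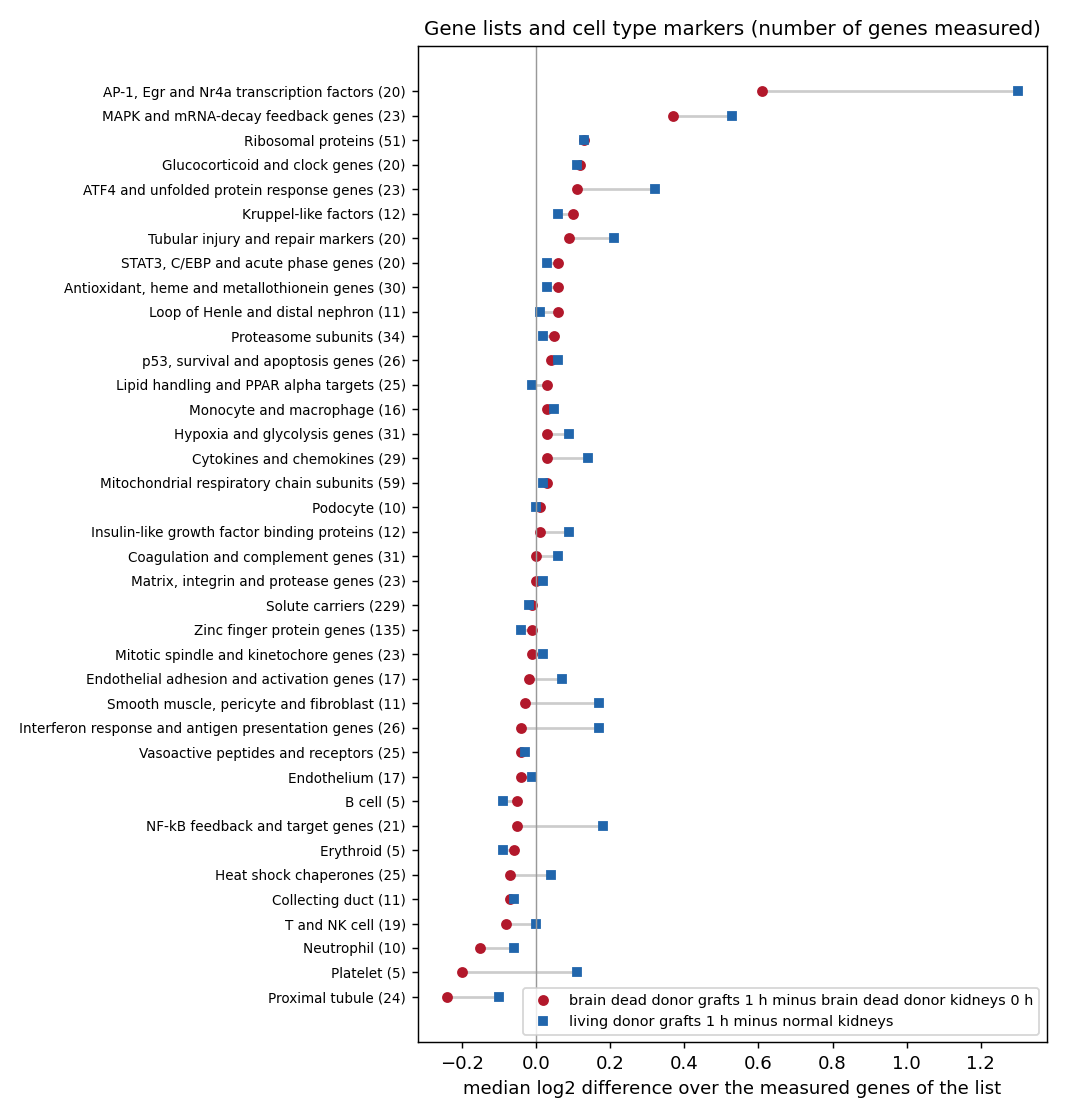
Median log2 difference (horizontal axis) over the measured genes of each list or cell marker set, brain dead donor grafts minus brain dead donor kidneys (red circles) and living donor grafts minus normal kidneys (blue squares). AP-1, Egr and Nr4a factors are at the top with 0.61 and 1.30, and proximal tubule markers at the bottom with -0.24 and -0.10.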

How the data were processed

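Kidney RNA was measured on 12 two-channel Agilent rat arrays. Per the design text, the authors read spots by Agilent Feature Extraction and normalized them in GeneSpring 7.0 (per spot, per chip and by intensity-dependent lowess) and used the Cy3 over Cy5 ratio. The values in the deposited table were taken to be log10 ratios, since they lie around 0 and end at 2, and were multiplied by 3.322 to give log2 ratios. The direction, sample over pool, rests on the design text. The deposited table gives ratios without intensities, so a dim or saturated spot cannot be recognised. The precision is limited by the number of arrays. Of the values, 0.702% were exactly 0 and were kept. Slides and scan dates were not used here, so no batch was tested. Nothing states that replicates came from separate litters or days, so p-values reflect only the spread among these arrays, which may be technical.

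Of 21575 probes, 12750 had 1 symbol in the platform annotation. Group means were fitted over all 12 arrays with limma 3.58.1 in R 4.3.3 (lmFit, eBayes; 8 residual and 1.89 prior degrees of freedom), and adjustment was by Benjamini-Hochberg over all 18478 features in each contrast, with 0.05 as the threshold. The fit was tested on simulated data. Array medians lay between 0 and 0.00987, and no further normalization was applied. Alternatives were quantile normalization, median centring, the compared groups alone, array weights, robust empirical Bayes, named genes only, single probes, features with exact zeros or limit values left out, and each array left out.

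Genes were named by rule. The rule takes genes that passed without overlap, the 8 smallest p-values in a direction where fewer than 8 passed, the 10 smallest p-values for the difference of responses, up to 4 members of each list by p, and textbook first responders and injury markers. The members and lists were chosen with earlier results of these data known. Motifs were searched in RefSeq promoters with Python 3.11.15.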

Additional observations from a re-analysis of the deposited data

How the results depend on the processing

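The count of 10 features for brain dead donor grafts against brain dead donor kidneys was 0 after quantile normalization (1519 with an unadjusted p under 0.05), 0 in a fit of these groups alone (1933), 68 with array weights and 6 with named genes only, where fewer features were tested. With 1 array left out it ran from 0 to 14. The count of 135 in living donor grafts was 483 with array weights and 86 with named genes only, and 33 to 210 with 1 array left out. The count of 0 for the difference of responses was 3 with array weights, 1 with named genes only and 0 to 4 with 1 array left out. Median centring, robust empirical Bayes, single probes and leaving out features with exact zeros kept each count within 1.5 times. The fit of the compared groups alone could not be made for the difference, which needs all 4 groups. Array weights were lowest for replicate 25 of the living donor grafts (0.418) and replicate 1 of the brain dead donor kidneys (0.447). Of 2455 values of the 127 named genes under an alternative, 2445 kept their direction and 10 reversed. The reversed values were -0.10 for H3f3b, -0.01 for Mt3 and -0.05 for Psmd9 after quantile normalization. For Il6 they were -0.61 without graft 21, -0.49 without brain dead donor kidney 3 and -0.16 with array weights. For Ccl2 they were -0.30, -0.11 and -0.49 in the same order, and for Selp 0.04 without graft 23. With 1 array left out the values ran from -0.61 to 0.59 for Il6, -0.30 to 0.76 for Ccl2 and -0.98 to 0.04 for Selp. The causes were not tested. Without the 50 bases after the start, the motif counts in the 3 promoters of genes that passed did not change, and the shares of all 33469 promoters were 1.5% against 1.64% (CArG box), 3.54% against 4.18% (kB site), 12.9% against 14.2% (TATA box), 6.34% against 7.33% (AP-1), 7.23% against 8.59% (heat shock element) and 1.59% against 1.83% (CRE). No paired analysis was possible because grafts and untransplanted kidneys share no replicate numbers.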

Other observations

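Several lists not described above had medians near 0 in brain dead donor grafts against brain dead donor kidneys, and none of their genes passed in limma. The median was -0.04 over 26 interferon and antigen presentation genes, against 0.17 in living donor grafts over normal kidneys. Without overlap 2 of the 26 lay higher and 3 lower, against 8.66% and 8.84% of all named genes. Isg20 was among the higher (0.27 ± 0.08, adjusted p = 0.208) and Irf3 among the lower (-0.28 ± 0.11, adjusted p = 0.329). Ifit1, an interferon-induced antiviral protein, stood at 0.84, 0.31 and 0.10 in the grafts and at 0.04, 0.08 and 0.00 in the brain dead donor kidneys (0.38 ± 0.16, adjusted p = 0.368). Without graft 21 the difference of Ifit1 was 0.17. Of 12 insulin-like growth factor and binding protein genes the median was 0.01. Igfbp1, a circulating binding protein of insulin-like growth factors, was high in both brain dead donor groups, at 2.31, 2.61 and 3.24 in the grafts and 2.42, 1.98 and 1.96 in the kidneys (0.60 ± 0.25, adjusted p = 0.349).

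Of 23 mitotic spindle and kinetochore genes 3 lay higher and 4 lower without overlap, against 8.66% and 8.84% of all named genes. Their median was -0.01. Ska2, a kinetochore protein, stood at -2.02, -1.94 and -1.74 in the grafts and at -1.37, -1.40 and -1.06 in the brain dead donor kidneys (-0.62 ± 0.16, adjusted p = 0.191). Living donor grafts had Ska2 at -0.58, -0.42 and 0.08. Of 135 zinc finger protein genes 7 lay higher and 17 lower without overlap, against the same shares of all named genes, with a median of -0.01. Zfp354a, a zinc finger protein of kidney, was below the pool in the brain dead donor kidneys, at -0.93, -1.02 and -0.31, and stood at -0.21, 0.68 and 0.53 in the grafts (1.09 ± 0.28, adjusted p = 0.189).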
